A study of Arabidopsis thaliana with 3 samples.

Results

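SAUR10 (AT2G18010) and SAUR4 (AT4G34800) are small auxin up RNA genes of Arabidopsis thaliana, and their transcripts were followed here in seedlings treated with indole-3-acetic acid (IAA), a natural auxin. They were taken by locus code as 2 of the 12127 genes that were measured under a name, and of 21859 genes and unnamed probes in all. Each was read by 1 probe. The rule uses the locus code and no measured value, but it was written with earlier results of these data known. Another gene with a SAUR name, SAUR58 (AT1G43040), was also measured under a name, so SAUR10 and SAUR4 are not the only ones; SAUR58 is given beside them. In all, 3 of the 80 genes that carry a SAUR name in the RefSeq gene table of assembly TAIR10.1 were measured under a name, or 3.75%, against 42.8% of its 27562 protein-coding genes. The other SAUR genes are not analysed here.

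The seedlings were of ecotype Col-0, the wild type of common use, and were 4 days old and grown in darkness. They were submerged on their plates in 10 µM IAA with 0.1% of the carrier ethanol, or in the carrier alone, and frozen after 20, 40 or 60 minutes. The whole seedlings of a plate were pooled, so that organs cannot be told apart, and neither can a change of transcript per cell and a change in which cells hold it. Each time point had 1 array with 2 channels, of ethanol RNA in channel 1 and IAA RNA in channel 2, with no replicate, so a value at a single time carries no error.

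SAUR genes code for short plant proteins, and many of their transcripts are known to appear within minutes of auxin treatment and to be short-lived. In the known pathway, auxin binds TIR1/AFB receptors, Aux/IAA repressors are degraded, and auxin response factors then turn on SAUR, Aux/IAA and GH3 genes. SAUR proteins of the well-studied groups block PP2C.D phosphatases, which leaves plasma membrane proton pumps active, so that the wall is acidified and loosened and the cell elongates. SAUR10 is known as a growth-promoting member that responds to auxin and is repressed by the MADS-box factor FRUITFULL. SAUR4 lies in a cluster of SAUR genes on chromosome 4.

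The values are log2 ratios of the 2 channels, in which 1 unit is a 2-fold difference and 0 is no difference. Which channel is divided by which is not stated, so that values are called positive or negative as deposited. Positive values likely stand for more transcript in IAA. This reading rests on the labels listing ethanol first and IAA second and on the GH3 genes, known auxin-induced genes, of which 5 of 6 measured members were positive on all 3 arrays, against 12.3% of all genes and probes. The arrays differed in spread: over all genes and probes the robust SD was 0.165 for the 20-minute, 0.221 for the 40-minute and 0.110 for the 60-minute array. Their medians were 0.00, 0.01 and 0.00.

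SAUR10 was on the positive side at every time. At 20 minutes its log2 ratio was 0.42, at 40 minutes it was 0.93, and at 60 minutes 0.69. As plain ratios these are 1.34, 1.91 and 1.61. The ratio was lowest at 20 minutes and highest at 40 minutes, and it stayed under 2-fold throughout. SAUR10 reached 1.5-fold on its positive side at 40 minutes, as did 5.4% of all genes and probes, and at 60 minutes, as did 2.16%. It was below that size at 20 minutes, when 1.4% reached it.

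The place of SAUR10 among all genes and probes of the same array is unchanged when that whole array is rescaled. It does depend on how widely the other genes and probes spread. The 95th percentile of the array was 0.60 at 40 minutes and 0.39 at 60 minutes. SAUR10 stood at percentile 96.7 at 20 minutes, with 685 genes and probes higher. At 40 minutes it stood at percentile 98.4, with 346 higher, and at 60 minutes at percentile 98.6, with 295 higher. By place, then, SAUR10 was highest at 60 minutes, not at 40, and the 40-minute array was the wider one. In robust SDs from the median of its array it lay at 2.56, 4.16 and 6.26. As an alternative, each array was divided by its own spread and multiplied by the mean spread of the 3 arrays. This scaling put the log2 ratio at 0.42, 0.70 and 1.03. The step from 40 to 60 minutes thus went from -0.25 as deposited to 0.34 scaled. Which of the later times held the higher ratio therefore rests on the scaling, and with 1 array per time no step was tested.

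SAUR4 stayed close to 0 and changed side. At 20 minutes its log2 ratio was 0.19, at 40 minutes it was -0.18, and at 60 minutes -0.06. As plain ratios these are 1.14, 0.88 and 0.96. Only the 20-minute value was positive, and SAUR4 was under 1.5-fold on either side at each time. On the negative side, 1.25% of all genes and probes reached that size at 20 minutes, 1.39% at 40 minutes and 0.339% at 60 minutes. It stood at percentile 84.9 at 20 minutes, 16.5 at 40 minutes and 23.7 at 60 minutes. Sizes like these were common: 29.2% of all genes and probes lay at least as far from 0 at 20 minutes, 42.1% at 40 minutes and 58.2% at 60 minutes. The order of sides was common too, since 13.4% of all genes and probes were positive at 20 minutes and negative at 40 and 60 minutes.

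SAUR58, for which no function is stated here, also lay near 0. SAUR58 had log2 ratios of -0.12 at 20 minutes, 0.04 at 40 minutes and -0.25 at 60 minutes. The 60-minute value was the largest of the 3 in size, at percentile 3.66 of its array, and still under 1.5-fold. SAUR58 and SAUR4 were on opposite sides at 20 and at 40 minutes and on the negative side together at 60 minutes. SAUR10 was the highest of the 3 SAUR genes on each array.

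**Figure D1:**
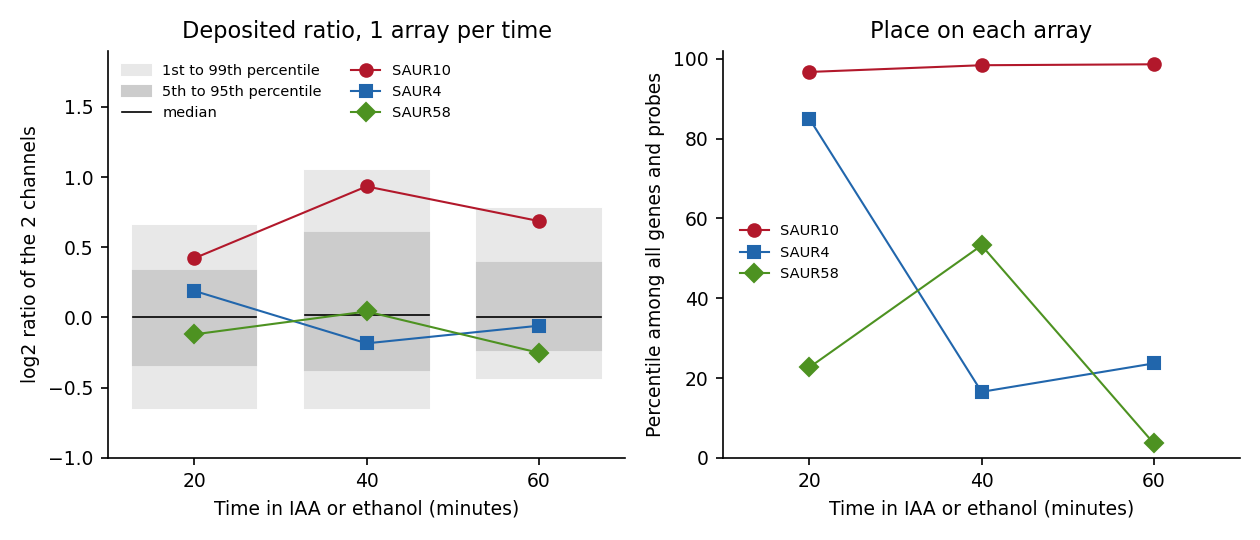
Log2 ratio of the 2 channels (left, vertical axis) and percentile among all 21859 genes and probes of the same array (right, vertical axis) of SAUR10, SAUR4 and SAUR58 over the 20, 40 and 60 minutes; every point is 1 array. Grey boxes span the 1st to 99th and the 5th to 95th percentile of each array and the black line is its median. SAUR10 lies above the 95th percentile on each array, at log2 ratios of 0.42, 0.93 and 0.69, while SAUR4 goes from percentile 84.9 to 16.5 and 23.7.

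The mean over the 3 arrays asks whether a transcript differed between IAA and ethanol through the hour. SAUR10 had a mean log2 ratio of 0.68 ± 0.26 (SD over 3 time points), a ratio of 1.60, and was positive on 3 of 3 arrays. In limma's moderated test of the mean against 0, fitted on all 21859 genes and probes, its 95% interval was 0.38 to 0.98. After Benjamini-Hochberg adjustment over all of them SAUR10 did not pass, with an adjusted p = 0.681 (limma, two-sided; unadjusted p = 0.00215, the 69th smallest). The test passed 19 genes and probes on the positive side, 0.0869% of those tested, and 0 on the negative side. Without adjustment, p was under 0.05 for 769 positive means (3.52%) and 231 negative means (1.06%), the shares beside which unadjusted counts of the lists further on stand. The 3 arrays are different times and not replicates, so any change between times counts as spread in this test. The dyes are not stated, and a dye effect of a probe that all arrays share cannot be told apart from a difference between IAA and ethanol.

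Few transcripts matched SAUR10 at all 3 times. Its mean lay at percentile 99.6 of all genes and probes. Only 40 others, or 0.183%, were at least as high as SAUR10 on each of the 3 arrays, and 10 of these were named genes. These 10 held 3 GH3 genes (GH3.1, GH3.3 and GH3.4), the lateral root factors LBD16 and LBD29, the HD-Zip factor gene HAT2, the kinase gene WAG2, and AT1G68360, AT3G51410 and AT5G66580; they are listed because they met this count, which was chosen after the values of SAUR10 were known. GH3.1, an enzyme gene of auxin conjugation, led the named genes by mean, at 2.95 against 0.68 for SAUR10.

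SAUR4 had a mean log2 ratio of -0.02 ± 0.19 (SD over 3 time points). Its 95% interval in the same fit was -0.27 to 0.24, in plain ratios 0.827 to 1.18, and it did not pass (limma, adjusted p = 1.00). The interval holds no mean change as large as 1.5-fold on either side, within the limits of 1 probe and 3 arrays. It covers the mean over the 3 times, whose values differed in side, and does not bound the change at any single time. As for SAUR10, its width rests on spread between times and leaves out a dye effect that all arrays share. The sign of the mean turned when the 40-minute array was left out, to 0.065, and when the 60-minute array was left out, to 0.0023. SAUR58 had a mean of -0.11 ± 0.15 (SD over 3 time points) with a 95% interval of -0.34 to 0.12, and did not pass (limma, adjusted p = 1.00).

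SAUR10 exceeded SAUR4 on 3 of 3 arrays. The difference in log2 ratio, SAUR10 minus SAUR4, came to 0.23, 1.12 and 0.75 over the 3 times. It was smallest at 20 minutes, the one time at which both genes were on the positive side. Its mean was 0.70 ± 0.44 (SD, n = 3), a factor of 1.62 between the 2 ratios. An exact two-sided sign-flip permutation test over the arrays gave p = 0.25, which is the smallest value that 3 arrays allow. The sequences of the probes were not used here, so how far each probe also reads related SAUR transcripts was not tested.

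**Figure D2:**
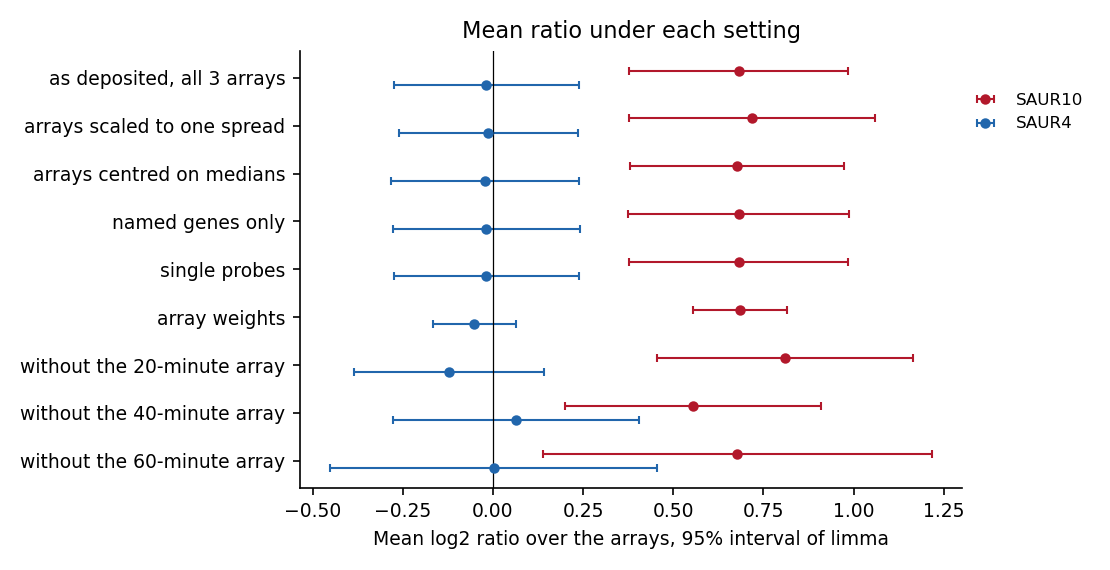
Mean log2 ratio over the arrays (horizontal axis) of SAUR10 and SAUR4 with limma's 95% interval, as deposited and under each alternative setting (vertical axis). SAUR10 lies between 0.55 and 0.81 and its intervals, not adjusted for the number of genes, lie above 0, while the intervals of SAUR4 all include 0.

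The named genes most like SAUR10 were taken by the root mean square difference of their 3 log2 ratios, which is a description with no test. The nearest was BZIP34, a basic leucine zipper transcription factor gene, at a distance of 0.0907. Its log2 ratios were 0.51, 0.88 and 0.57 at 20, 40 and 60 minutes. Next came AT5G26130 at a distance of 0.117, then IAA30, an Aux/IAA gene, at 0.136. IAA30 had log2 ratios of 0.54, 1.06 and 0.53, higher than SAUR10 at 20 and 40 minutes and lower at 60 minutes. AT5G61950, AT5G43590 and AT2G32160 followed at 0.138, 0.141 and 0.142. All 6 were highest at 40 minutes, like SAUR10 as deposited, a shape that their choice by nearness to its values favours. Each was lower than SAUR10 at 60 minutes. None of the 6 passed limma's test of the mean, with adjusted p-values of 0.557 for BZIP34 and 0.771 for IAA30. With the arrays scaled to one spread, 4 of the 6 remained among the nearest 6.

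SAUR4 had many genes as near. AT4G36790 had the same 3 deposited values, at a distance of 0, and AT3G15800 lay at 0.00863. UGT74B1, a glucosyltransferase gene of glucosinolate synthesis, lay at 0.0147, with log2 ratios of 0.16, -0.18 and -0.06. AT5G54520, AT3G22290 and AT4G36580 lay at 0.0148, 0.0176 and 0.0187. Of these 6 genes, 4 remained among the nearest 6 with the arrays scaled to one spread. Within a distance of 0.1 there were 1064 named genes for SAUR4 and 1 for SAUR10.

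**Figure D3:**
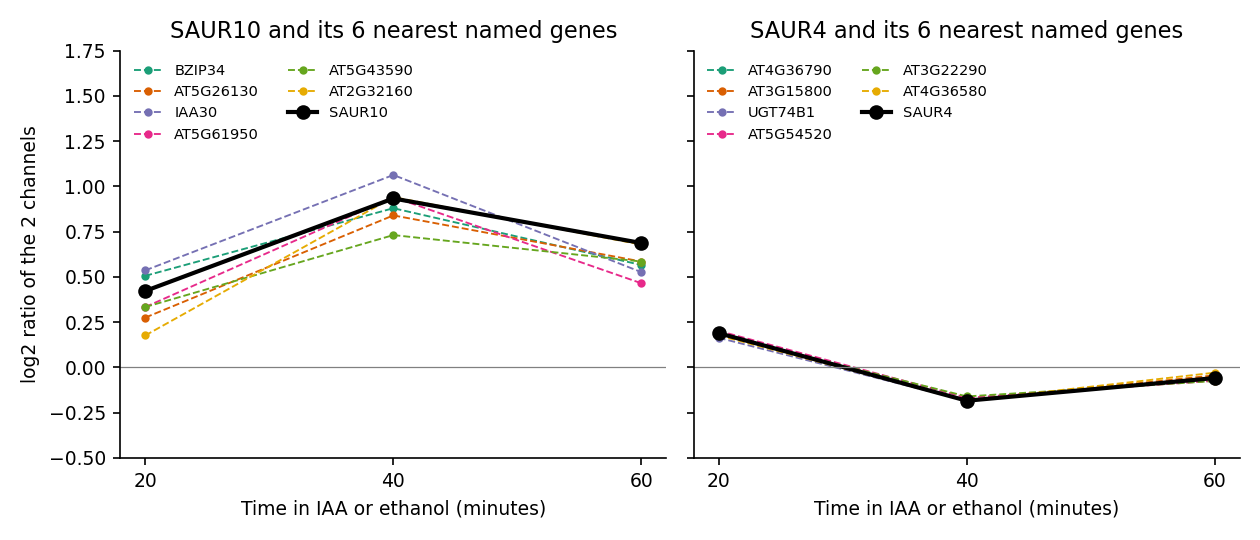
Log2 ratio of the 2 channels (vertical axis) of SAUR10 (left) and SAUR4 (right) as thick black lines over the 20, 40 and 60 minutes, each beside its 6 nearest named genes as dashed lines; every point is 1 array. The genes were chosen for their nearness, which favours a like shape. The 6 genes near SAUR10 are, like it, highest at 40 minutes, at distances of 0.0907 to 0.142. Those near SAUR4 overlie it at distances of 0 to 0.0187.

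The genes beside each SAUR gene on its chromosome differ between the pair. Of the 3 protein-coding genes on each side of SAUR10 on chromosome 2, 0 carry a SAUR name and 3 were measured under a name. These were ATSLY1, with a mean log2 ratio of -0.14, AT2G17990, at -0.09, and MSRA5, a methionine sulfoxide reductase gene, at -0.0010. All 3 were under 1.5-fold at each time, ATSLY1 reaching -0.36 at 40 minutes, the time at which SAUR10 stood at 0.93. Of the 6 genes around SAUR4, 4 carry a SAUR name (SAUR1, SAUR2, SAUR3 and SAUR5) and 0 were measured under a name, so whether the cluster on chromosome 4 moved with SAUR4 is not analysed here.

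Upstream of the SAUR genes, the 6 TIR1/AFB receptors and the 23 auxin response factors had 0 members measured under a name. Of 32 genes with an IAA name, 5 were measured and 0 passed limma's test of the mean on either side. At an unadjusted p under 0.05 there was 1, positive, against 3.52% of all genes and probes on that side. IAA30 had the highest mean, 0.71 ± 0.31 (SD over 3 time points), close to that of SAUR10, and IAA18 the lowest, -0.08. IAA31, named after its values were seen, had the largest single value, 1.19 at 20 minutes, followed by 0.04 and -0.36. On the positive side IAA31 alone reached 1.5-fold at 20 minutes and IAA30 alone at 40 minutes, and 0 did at 60 minutes. The median log2 ratios of the 5 were 0.04, 0.04 and 0.15 at the 3 times. The GH3 genes, which are targets of the same pathway, had medians of 0.65, 1.29 and 2.57 at these times. Positive values of 1.5-fold or more were held by 3, 4 and 4 of the 6, against 1.4%, 5.4% and 2.16% of all genes and probes. GH3.1 alone passed (limma, adjusted p = 0.0443), and with the arrays scaled to one spread or any 1 array left out 0 genes and probes passed. Without adjustment, limma's p was under 0.05 for 5 of the 6, all positive, against 3.52% of all genes and probes on that side. GH3.17 had the lowest mean, 0.10.

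Among the steps known to follow SAUR proteins, 4 of the 9 PP2C.D phosphatases were measured. In limma's test 0 passed on either side. At an unadjusted p under 0.05 there was 1, positive, against 3.52% of all genes and probes on that side. Of the 4, 0 reached 1.5-fold at any time. Of all genes and probes, 1.4%, 5.4% and 2.16% did so on the positive side at the 3 times. On the negative side 1.25%, 1.39% and 0.339% did. With shares this small, 0 of 4 says little about these genes. AT3G17090 was the highest, at 0.18, 0.19 and 0.42, and the one member positive on all 3 arrays (mean 0.26; limma, adjusted p = 1.00). AT3G12620, AT3G55050 and AT3G51370 had means of 0.0089, -0.01 and -0.07. The 11 AHA proton pumps had 0 members measured under a name.

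Expansins and xyloglucan endotransglucosylases (XTH), which act on the cell wall, had 22 of 64 members measured, and 0 passed limma's test on either side. At an unadjusted p under 0.05 there were 2, both negative, against 1.06% of all genes and probes on that side. At 20 minutes 2 reached 1.5-fold as positive values, at 40 minutes 3 did so as positive and 1 as a negative value, and at 60 minutes 0 did. Of all genes and probes 1.4% were that far on the positive side at 20 minutes, while at 40 minutes 5.4% were positive and 1.39% negative by that much. The shares at 60 minutes were 2.16% positive and 0.339% negative. At the 3 times the medians of the 22 were 0.05, 0.06 and 0.00, near those of all genes and probes. XTH29 had the highest mean, 0.39, with its largest ratio at 40 minutes (0.81), and XTH21 the lowest, -0.38, with its lowest at 40 minutes (-0.67). XTH33, EXPB4 and XTH18 stood above SAUR10 at 20 minutes (0.67, 0.63 and 0.48 against 0.42), EXPA21 did so at 40 minutes (1.08 against 0.93), and 0 of the 22 did at 60 minutes; these 4 were named after their values were seen.

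Levels cannot be read from ratios, so the labelled tissue could not be checked against the level of its markers. Of 11 markers of root hairs, light and handling, 5 were measured and 0 passed limma's test. At an unadjusted p under 0.05 there were 2, both negative, against 1.06% of all genes and probes on that side. The root hair expansins EXPA7 and EXPA18 (also among the 22) had means of -0.22 and -0.35, and the greening genes PORB and LHCB4.1 had means of 0.10 and 0.07. HRA1, a regulator of the low-oxygen response, stood at -0.38, -0.43 and -1.03. At 60 minutes HRA1 was beyond 1.5-fold on the negative side, as were 0.339% of all genes and probes. HRA1, EXPA7 and EXPA18 were negative on all 3 arrays, the side opposite to SAUR10, as were 8.82% of all genes and probes. Both groups were submerged alike, and the part of these markers in the values of SAUR10 was not tested.

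**Figure D4:**
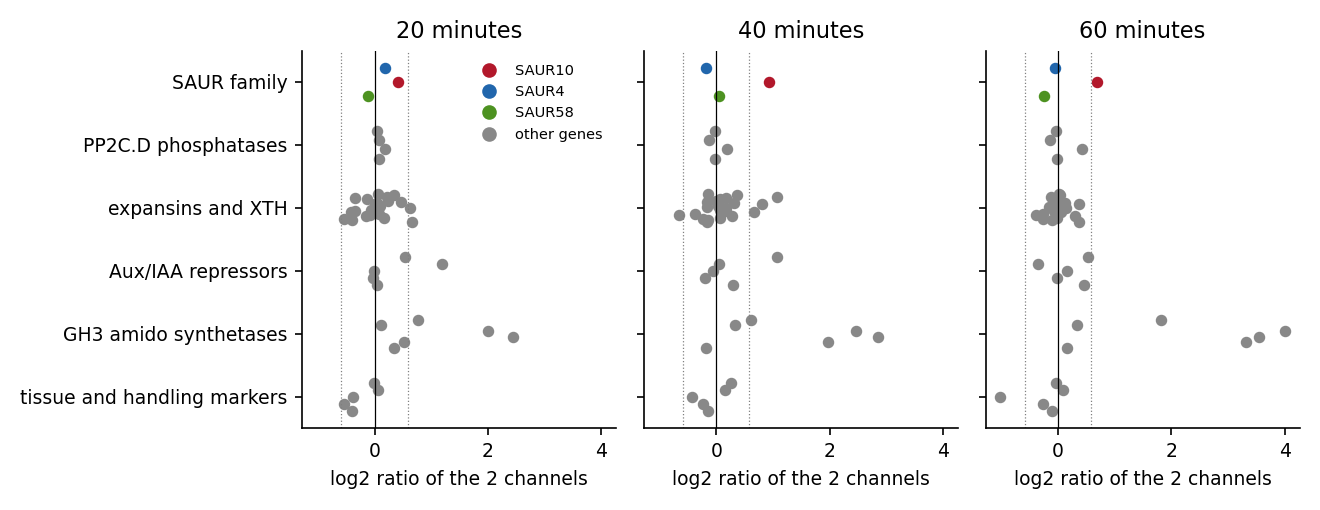
Log2 ratio of the 2 channels (horizontal axis) of the measured members of each list (rows) at 20, 40 and 60 minutes, each panel being 1 array and each point 1 gene. Dotted lines mark 1.5-fold on either side. SAUR10 is beyond the dotted line at 40 and 60 minutes, SAUR4, SAUR58 and the 4 PP2C.D phosphatases stay within it, and GH3 genes reach the highest ratios.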

How the data were processed

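Each of 3 two-channel arrays compared IAA with ethanol at 1 time point. The deposited log2 values are ratios of the channels: taken back from log2, 100% of them were ratios in whole steps of 0.01, within 1e-05. No source used here gives the numerator, dyes, background correction, normalization or array model. Without spot intensities, signal over background is unknown, and precision is limited by having 3 arrays.

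Probes were named through the platform annotation by gene identifier (12142), locus code (44, among them SAUR10 and SAUR4) or symbol (9) in a RefSeq table of TAIR10.1; 9743 of 21939 probes were not listed there and 1 had several genes. Probes of a gene were averaged. Genes and probes with all 3 values, 21859 in all, were fitted with limma 3.58.1 in R 4.3.3 (intercept, empirical Bayes, two-sided, Benjamini-Hochberg, threshold 0.05). The test was tried on simulated data of 21859 features, with 50 changed features of each size. The simulated spreads were those over the 3 time points, shuffled among features, so they hold change over time. It recovered 2% of changes of log2 0.585, 48% of changes of 1, 52% of changes of -1 and 76% of changes of 2. There were 2 false calls. These rates hold for that setting and depend on the number of changed features. Not passing therefore does not show that a transcript was unchanged. Nothing states whether the times are separate cultures.

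Named genes were both members, their 6 nearest named genes each, measured neighbours within 3 genes, all measured members of small pathway lists, and the highest and lowest mean of larger ones (Aux/IAA, GH3, expansins and XTH). Genes as high as SAUR10 on each array, IAA31 and 4 wall genes were named after their values were seen. Members and lists were chosen with earlier results of these data known. Alternatives were scaling, centring, array weights, named genes only, single probes and each array left out.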

Additional observations from a re-analysis of the deposited data

Results flagged for a closer look

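SAUR4 stood on opposite sides of 0 at different times. Its log2 ratio was higher at 20 minutes than at 40 minutes, by 0.37, and higher than at 60 minutes, by 0.25. With a single array at each time this contrast was not tested. All 3 values were under 1.5-fold, and 13.4% of all genes and probes had the same order of sides.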

How the results depend on the processing

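The mean of SAUR10 kept its side under every alternative run, between 0.68 and 0.72 with all arrays and between 0.55 and 0.81 with 1 array left out. It passed the test only with array weights (mean 0.69, limma, adjusted p = 0.0114, against 0.681 to 1.00 in the other fits), which rest mainly on the 60-minute array (weight 6.70 against 0.396 and 0.377) and passed 2057 positive and 794 negative genes and probes. The positive count of 19 became 0 with scaled arrays, 2 with named genes only, and 0 to 0 with 1 array left out. The mean of SAUR4 lay between -0.12 and 0.065 with 1 array left out, turning to 0.065 without the 40-minute array and 0.0023 without the 60-minute array. SAUR10 minus SAUR4 lay between 0.49 and 0.93 with 1 array left out, and was 0.73 scaled. Scaling turned the step of SAUR10 from 40 to 60 minutes to 0.34, an alternative chosen after seeing the data, and put its 60-minute log2 ratio at 1.03. Scaling changed the positive and negative counts at 1.5-fold at 40 minutes from 1181 and 303 to 604 and 112. At 60 minutes it changed them from 473 and 74 to 1141 and 298. Bringing the arrays to one common spread narrows the 40-minute array and widens the 60-minute array. No paired analysis was possible because, beyond the pairing of IAA with ethanol within each array that the ratio already holds, each time point has 1 array and the labels give no replicate numbers.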
